A study of Mus musculus with 12 samples.

Results

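The circadian clock genes Arntl, Clock, Npas2, Per1, Per2, Per3, Nr1d1, Nr1d2, Dbp and Tef were followed in mouse liver. They were taken as every gene probe that carried 1 of these names, which gave 10 genes of 28786 gene names on the array, with 19 probes. Of these, 13 probes of 9 genes were bright enough to be tested. Npas2, which can stand in for Clock as the partner of Arntl, was well above background in 1 of 6 knockout channels of the CA group and in none of the other channels, so it has no comparison.

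The clock of a liver cell is a loop of transcription. The proteins of Arntl (also called Bmal1) and Clock bind E-box sequences as a pair and switch on the Per genes, Nr1d1, Nr1d2, Dbp and Tef, which therefore peak in the opposite part of the day to Arntl. The PER proteins then act against the activator pair, the nuclear receptors made from Nr1d1 and Nr1d2 repress Arntl through ROR response elements, and DBP and TEF act on D-boxes in genes of liver metabolism.

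On 12 Agilent arrays, each read in 2 colours, Abcb4(-/-) livers were compared with Abcb4(+/+) livers. Abcb4 encodes the transporter that carries phospholipid into bile. The mice of the first group had received cholic acid (CA) for 9 weeks and those of the second ursodeoxycholic acid (UDCA) for 9 weeks, and wild-type livers were the controls of each group. Each diet group had 5 livers on 6 arrays, one of which repeats a liver with the dyes exchanged, and nothing was pooled. Knockout RNA carried Cy5 on arrays 1 to 3 and Cy3 on arrays 4 to 6 of each group. Every knockout liver came from a mouse fed a bile acid, so loss of Abcb4 and diet cannot be told apart in a ratio to wild type. The sources used here do not give age, sex, strain, bile acid dose, the diet of the wild-type mice or the hour of sampling. A shift of the daily phase and a change in the mean level of a clock gene therefore cannot be told apart.

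Median green intensity per array lay between 250.2 and 1296 and median red intensity between 59.2 and 158.2. The share of spots well above background was 41.6% to 68.4% in green and 31.6% to 62.4% in red. The dimmer Abcb4 probe was lower in knockout liver on all 12 arrays, at log2 ratios from -3.74 to -2.07 with CA and from -2.77 to -1.20 with UDCA. The brighter one was lower on 5 of 6 arrays in each group. Of the 7 hepatocyte markers tested in these livers, 4 (Alb, Apoa1, Apob and Cps1) were saturated on 11 or 12 of the arrays.

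Promoter stretches are shown for the clock genes in which a binding sequence of the loop was found, and for Ciart, a repressor of the activator pair described further on. They come from RefSeq (GRCm38.p6), read 5′ to 3′ on the strand of the gene, with the matched letters in capitals. The lines for Per1, Tef and Ciart hold the 250 bases before the start of transcription, and the capitals mark the E-box CACGTG.
Per1, chr11:69098699-69098948, plus strand: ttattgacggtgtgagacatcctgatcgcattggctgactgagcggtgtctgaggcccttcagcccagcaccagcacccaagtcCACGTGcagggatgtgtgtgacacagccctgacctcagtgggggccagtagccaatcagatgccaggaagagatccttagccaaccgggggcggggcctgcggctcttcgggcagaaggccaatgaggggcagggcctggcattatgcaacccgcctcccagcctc
Tef, chr15:81802423-81802672, plus strand: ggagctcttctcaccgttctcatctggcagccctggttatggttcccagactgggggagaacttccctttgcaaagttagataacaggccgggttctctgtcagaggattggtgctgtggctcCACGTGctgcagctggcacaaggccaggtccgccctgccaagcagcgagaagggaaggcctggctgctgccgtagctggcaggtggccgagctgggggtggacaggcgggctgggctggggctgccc
Ciart, chr3:95882229-95882478, minus strand: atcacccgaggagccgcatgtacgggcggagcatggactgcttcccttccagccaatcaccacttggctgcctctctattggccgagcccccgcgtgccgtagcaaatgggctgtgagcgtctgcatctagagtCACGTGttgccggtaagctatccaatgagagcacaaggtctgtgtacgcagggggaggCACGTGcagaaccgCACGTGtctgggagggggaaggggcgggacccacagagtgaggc

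The line for Per3 holds the same stretch, with the D-box TTATGTAA in capitals, and the line for Arntl holds 30 bases around a ROR response element (in capitals) just downstream of one of its starts.
Per3, chr4:151044666-151044915, minus strand: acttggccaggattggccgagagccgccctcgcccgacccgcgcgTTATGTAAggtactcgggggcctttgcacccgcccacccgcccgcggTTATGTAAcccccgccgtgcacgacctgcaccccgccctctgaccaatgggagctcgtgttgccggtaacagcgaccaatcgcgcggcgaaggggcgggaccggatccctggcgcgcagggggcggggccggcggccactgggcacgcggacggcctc
Arntl, chr7:113207527-113207556, plus strand: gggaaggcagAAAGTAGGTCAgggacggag

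The windows searched ran from 250 bases before to 50 bases after each start, on both strands, and 9 of the 10 clock genes had 14 windows (Per2 had none). The Per1 E-box lay at positions -166 to -161 relative to the start, and the other Tef window also held 1 E-box. An E-box stood in 7.15% of all 32851 mouse windows, the D-box (TTATGTAA or TTACGTAA) in 1.06%, the ROR response element in 0.384% and the cyclic AMP response element TGACGTCA in 1.79%. The windows of Clock, Npas2, Nr1d1, Nr1d2 and Dbp held none of these letters. A match describes the letters in this window and was not tested as a site.

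Each ratio that follows sets knockout against wild type within 1 array, on the log2 scale, so 1 is a doubling and -1 a halving, and each gene is represented by its brightest tested probe. Means carry the standard error of the limma fit over 6 arrays per diet, with p-values adjusted by the Benjamini-Hochberg method across the 21688 probes tested. In whole liver, fewer cells of a type and less RNA per cell cannot be told apart. Loess sets the centre of each array; with median centring in its place the median of all probes was 0.23 with CA and 0.29 with UDCA, against 0.05 and 0.03 with loess.

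The activator Arntl was higher and most genes of the opposite phase were lower in the knockout livers of both diets. With CA, 7 of the 9 clock genes passed the test, 1 higher and 6 lower, where 60.3% of all genes passed, 37.8% higher and 22.4% lower. With UDCA, 8 of 9 passed, 2 higher and 6 lower, where 26% of all genes passed, 17.2% higher and 8.77% lower. The count in either direction with CA is thus near the share of all genes, while the counts of lower genes are not. In both diets 6 of the 9 passed, Arntl higher and Per1, Per2, Nr1d1, Nr1d2 and Tef lower. The median ratio over the 9 genes was -0.60 with CA and -0.84 with UDCA, beside 0.10 and 0.04 over all genes tested. With median centring 2 of 9 passed in each diet, 1 higher and 1 lower with CA and 2 higher and 0 lower with UDCA, so that most calls of lower clock genes were lost. Over all probes the calls were 4939 higher and 1202 lower with CA (loess 7416 and 5503) and 1866 higher and 110 lower with UDCA (loess 3265 and 1820).

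**Figure D1:**
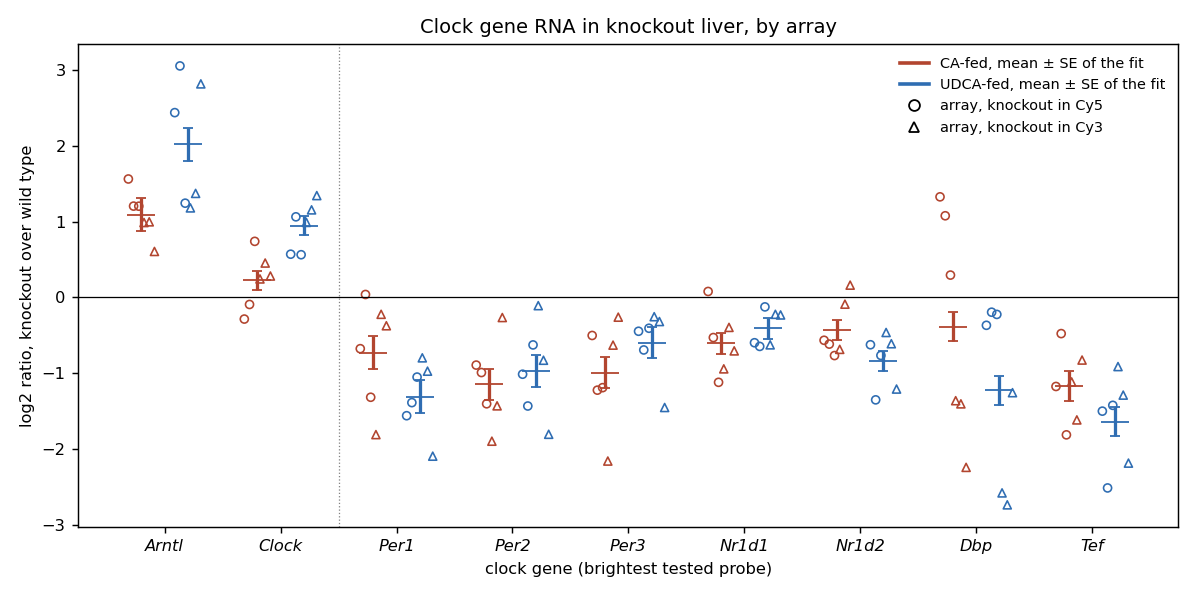
Log2 ratio of knockout over wild type (vertical axis) for each clock gene, as 1 point per array for the CA-fed (left of each pair) and UDCA-fed (right) groups, circles with the knockout in Cy5 and triangles with it in Cy3; bars give the mean of the limma fit ± its standard error. Arntl lies above 0 on all 12 arrays, Per2, Per3 and Tef lie below 0 on all 12, and Dbp splits by dye.

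Arntl, whose protein is the activator without which the clock stops, was the clock gene with the largest rise. CA arrays 1 to 6 read 1.56, 1.21, 1.20, 0.99, 0.999 and 0.61. UDCA arrays 1 to 6 read 2.44, 3.06, 1.24, 1.18, 1.37 and 2.82. Every array of both diets was above 0, and the diets overlapped between 1.18 and 1.56. In the fit Arntl was 2.14-fold higher than wild type with CA (log2 1.10 ± 0.21, adjusted p = 0.000405) and 4.05-fold higher with UDCA (2.02 ± 0.21, adjusted p = 5.66e-06). A rise on all 6 arrays was seen for 28.9% of all genes with CA and 18.6% with UDCA. The UDCA values fell into groups by slide: arrays 3, 4 and 5 shared slide 4 and were the 3 lowest, while arrays 1 and 2 on slide 3 and array 6 on slide 5 were the 3 highest. The probe, A_52_P267651, lies at chr7:109229489-109229548 in mm7, the build of the probe positions.

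Clock, the partner of Arntl, read -0.29, -0.09, 0.74, 0.24, 0.45 and 0.28 on CA arrays 1 to 6. On UDCA arrays 1 to 6 it read 0.57, 1.06, 0.56, 0.99, 1.16 and 1.34. All 6 UDCA arrays were above 0, whereas the CA arrays lay on both sides of it. Clock was 1.93-fold higher with UDCA (0.95 ± 0.13, adjusted p = 5.37e-05) and did not pass with CA (0.22 ± 0.13, adjusted p = 0.137, 95% interval -0.04 to 0.49). A second Clock probe, A_52_P334677, gave 0.55 ± 0.13 with UDCA (adjusted p = 0.00729) and -0.06 ± 0.13 with CA (adjusted p = 0.723). The other 2 Clock probes were too dim to test.

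Among the Period genes, whose proteins close the loop by acting against the activators, Per2 was lower on all 12 arrays. Its ratios were -0.89, -0.99, -1.40, -1.90, -1.43 and -0.26 on CA arrays 1 to 6, and -1.01, -1.43, -0.63, -0.11, -0.83 and -1.81 on UDCA arrays 1 to 6. The 2 diets covered nearly the same range, and array CA 6 and array UDCA 4 were closest to wild type. Per2 was at 0.452 of the wild-type level with CA (-1.15 ± 0.21, adjusted p = 0.000243) and at 0.511 with UDCA (-0.97 ± 0.21, adjusted p = 0.00309). A dimmer Per2 probe, A_52_P536869, moved less, at -0.27 ± 0.11 with CA (adjusted p = 0.0461) and -0.10 ± 0.11 with UDCA (adjusted p = 0.568). Lower values on all 6 arrays were found for 15.2% of all genes with CA and 9.42% with UDCA.

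Per1, the Period gene that also answers acutely to hormones, read -0.68, 0.04, -1.32, -1.81, -0.22 and -0.37 on CA arrays 1 to 6. On UDCA arrays 1 to 6 it read -1.56, -1.39, -1.05, -0.80, -0.97 and -2.09. Only array CA 2 was above 0. Per1 was at 0.604 of wild type with CA (-0.73 ± 0.21, adjusted p = 0.00890) and at 0.403 with UDCA (-1.31 ± 0.21, adjusted p = 0.000368).

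Per3, the Period gene whose loss leaves the mouse clock running, read -0.50, -1.22, -1.19, -2.16, -0.63 and -0.26 on CA arrays 1 to 6. On UDCA arrays 1 to 6 it read -0.45, -0.69, -0.41, -0.25, -0.32 and -1.45. All 12 arrays were below 0, with CA 4 and UDCA 6 the lowest of their groups. The CA mean passed (-0.99 ± 0.21, adjusted p = 0.000760) and the UDCA mean lay just outside the threshold of 0.05 (-0.59 ± 0.21, adjusted p = 0.0501). In the UDCA group the Per3 probe was well above background in 3 of 6 knockout channels and 5 of 6 wild-type channels, which limits how low a ratio could be read.

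The nuclear receptors Nr1d1 and Nr1d2 (REV-ERB alpha and beta) repress Arntl. Nr1d1 read 0.08, -0.53, -1.12, -0.94, -0.40 and -0.71 on CA arrays 1 to 6 and -0.60, -0.65, -0.12, -0.63, -0.22 and -0.23 on UDCA arrays 1 to 6. Array CA 1 was the only one above 0. The mean was -0.60 ± 0.14 with CA (adjusted p = 0.00162) and -0.41 ± 0.14 with UDCA (adjusted p = 0.0447). The UDCA call is a narrow one: leaving out any 1 of CA 2, CA 5, CA 6, UDCA 1, UDCA 2, UDCA 4, UDCA 5 or UDCA 6 ends it (adjusted p up to 0.138), and with median centring the value was 0.0057. It ended too with slide as a fixed block (adjusted p = 0.0923) or as a random block (adjusted p = 0.0731). The other 2 Nr1d1 probes were too dim to test.

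Nr1d2 read -0.57, -0.62, -0.77, -0.68, -0.09 and 0.16 on CA arrays 1 to 6. On UDCA arrays 1 to 6 it read -0.62, -1.35, -0.76, -0.46, -0.61 and -1.21. Array CA 6 was the only one above 0, and no UDCA array was. It was lower in the fit with CA (-0.43 ± 0.13, adjusted p = 0.0126) and with UDCA (-0.84 ± 0.13, adjusted p = 0.000297). Without CA 4 the CA value did not pass (adjusted p = 0.0567).

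Tef and Dbp encode factors of the PAR bZIP family that carry the clock's output to liver enzymes. Tef read -1.17, -0.48, -1.81, -1.11, -1.62 and -0.83 on CA arrays 1 to 6, and -1.50, -2.51, -1.42, -0.91, -1.29 and -2.19 on UDCA arrays 1 to 6. All 12 arrays were below 0. Tef was at 0.444 of wild type with CA (-1.17 ± 0.20, adjusted p = 0.000116) and at 0.321 with UDCA (-1.64 ± 0.20, adjusted p = 2.07e-05). By the brightest probes these were the largest falls in this fit among the 9 clock genes, though with CA that of Per2 was close (-1.15 ± 0.21). The spot of this Tef probe was saturated in the wild-type channel of 1 CA array. A second Tef probe, A_51_P450561, was called lower in both (-1.03 ± 0.22 with CA, adjusted p = 0.000836, and -0.73 ± 0.22 with UDCA, adjusted p = 0.0238). Another, A_52_P173309, was called lower with CA (-0.79 ± 0.18, adjusted p = 0.00159) and read -0.46 ± 0.18 with UDCA (adjusted p = 0.0858).

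Dbp was the brightest clock gene, and its spot was saturated in green on 11 of 12 arrays and in red on the other one. A saturated spot is read too low, and here that touches the knockout RNA on some arrays and the wild-type RNA on others. Its ratios were 1.33, 1.08, 0.30, -1.36, -1.40 and -2.24 on CA arrays 1 to 6 and -0.37, -0.19, -0.22, -2.58, -2.74 and -1.26 on UDCA arrays 1 to 6. On every CA array with the knockout in Cy5 Dbp was above 0, and on every one with it in Cy3 below 0. The fit, which carries a dye effect (1.13 for Dbp, adjusted p = 4.75e-05), gave -1.23 ± 0.19 with UDCA (adjusted p = 0.000230) and -0.38 ± 0.19 with CA (adjusted p = 0.0945). All 6 UDCA arrays were below 0, but no Dbp value remained when saturated spots were left out, so its size is not known from these arrays.

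Set against each other, the 2 phases moved apart on every array. The mean of Arntl and Clock was above 0 and the mean of the 7 genes of the opposite phase below 0 on all 12 arrays. Of the single values of those 7 genes, 36 of 42 were below 0 with CA and 42 of 42 with UDCA, and 6 of the 7 were called lower in each diet. The gap, taken as the mean of the opposite phase minus the mean of the activators, was -0.98, -0.95, -2.02, -2.04, -1.55 and -1.09 on CA arrays 1 to 6. On UDCA arrays 1 to 6 it was -2.38, -3.23, -1.56, -1.91, -2.26 and -3.54. Its mean was -1.44 ± 0.51 with CA and -2.48 ± 0.77 with UDCA (SD, n = 6 arrays each), and arrays of the 2 diets overlapped between -2.04 and -1.56. The members were grouped by their known phases, and a score over them carries no test. Dbp, whose spots were saturated and whose ratios split by dye, is 1 of the 7 genes, so the gap of a single array carries part of that dye effect. Clock was below 0 on arrays CA 1 and CA 2 (-0.29 and -0.09), so the activator mean was above 0 there through Arntl alone. A common shift of all ratios on an array cancels in the gap, which was -1.56 with CA and -2.67 with UDCA under median centring.

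**Figure D2:**
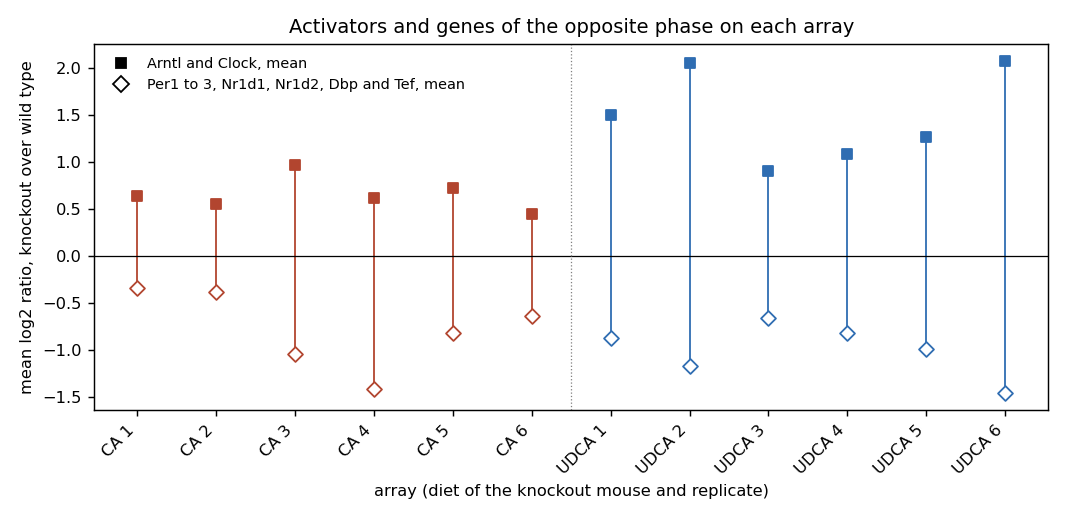
Mean log2 ratio of knockout over wild type (vertical axis) on each of the 12 arrays, for Arntl and Clock (filled squares) and for the 7 genes of the opposite phase (open diamonds), with a line joining both on 1 array. The squares are above 0 and the diamonds below 0 throughout, and the widest gap, -3.54, is that of UDCA array 6.

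Arntl and Clock read lower with CA than with UDCA, in calls that did not hold with slide as a fixed block. In the difference, CA minus UDCA, 3 of 9 clock genes passed, 1 higher and 2 lower, where 27.6% of all genes did (18.8% higher and 8.88% lower), so the count in either direction is near that of all genes. Arntl differed by -0.92 ± 0.30 (adjusted p = 0.0330) and Clock by -0.72 ± 0.18 (adjusted p = 0.00785), and the second Clock probe by -0.61 ± 0.19 (adjusted p = 0.0279). Dbp differed by 0.84 ± 0.27 (adjusted p = 0.0312), with the limit of saturation given above. No clock gene separated the 6 CA arrays from the 6 UDCA arrays without overlap, which 10.2% of all genes did.

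The other genes did not pass for the difference, and their intervals were wide. Per1 differed by 0.58 (95% interval -0.06 to 1.23, adjusted p = 0.169), Nr1d2 by 0.41 (0.01 to 0.81, adjusted p = 0.121) and Tef by 0.47 (-0.12 to 1.06, adjusted p = 0.229) in the limma fit. The Tef probes A_51_P450561 and A_52_P173309 read the other way in that fit. They differed by -0.30 (adjusted p = 0.499) and -0.34 (adjusted p = 0.355), so the direction for Tef depends on the probe. Per2 differed by -0.18 (-0.81 to 0.45, adjusted p = 0.695), Per3 by -0.40 (-1.02 to 0.23, adjusted p = 0.336) and Nr1d1 by -0.19 (-0.61 to 0.22, adjusted p = 0.494). The intervals of Per1, Per3 and Tef reach a difference as large as that of Arntl.

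Slide and diet were only partly crossed, since slides 3 and 4 alone held both. With 1 CA array against 2 UDCA arrays on slide 3 and 1 against 3 on slide 4, Arntl differed by -1.75 and -0.66 and Clock by -0.36 and -0.62, in the direction of the fit. Dbp differed by -1.12 and -0.40, against the direction of the fit. The dyes were not balanced between the diets on either slide, which limits these within-slide values for all 3 genes. In the fit the dye effect was 0.23 for Arntl (adjusted p = 0.356), -0.16 for Clock (adjusted p = 0.273) and 1.13 for Dbp (adjusted p = 4.75e-05). With slide as a fixed block Arntl was at -1.01 (adjusted p = 0.0571), Clock at -0.57 (adjusted p = 0.248) and Dbp at 0.54 (adjusted p = 0.253), so none of the 3 passed. The Arntl call also ended without any 1 of CA 2, CA 3, CA 5, CA 6, UDCA 1 or UDCA 2 (adjusted p up to 0.0825), and the Dbp call without any 1 of CA 1, CA 2, CA 4, CA 5 or UDCA 1 to 5, while Clock passed without each array in turn.

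The ratios of all 9 clock genes varied more between arrays than those of the median gene, 6 of them by a wide margin. After the diet mean and the dye effect were removed, which leaves the spread of knockout livers, wild-type livers and arrays together, the SD of Arntl over the arrays was 0.622, against a median of 0.309 over all genes. This placed Arntl at percentile 94.2, Per1 at 94.7, Per2 at 93.9, Per3 at 93.7, Tef at 91.8 and the saturated Dbp at 90.6 of all genes. Nr1d1 (65.6), Nr1d2 (60.9) and Clock (51.7) were nearer the middle.

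These deviations ran in opposite directions for the 2 phases, Dbp apart. Over the 12 arrays, all 12 pairs of an activator with 1 of Per1, Per2, Per3, Nr1d1, Nr1d2 and Tef had a negative Pearson correlation, from -0.72 to -0.02 with a median of -0.50. All 15 pairs within those 6 genes were positive, from 0.16 to 0.84 with a median of 0.58, and Arntl with Clock gave 0.33. Dbp, set aside after its saturation was seen, correlated negatively with 5 of the 6 and at 0.58 with Arntl. The points share their arrays and their loess curves, and 1 pair of arrays per diet shares a liver, so the correlations are a description.

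**Figure D3:**
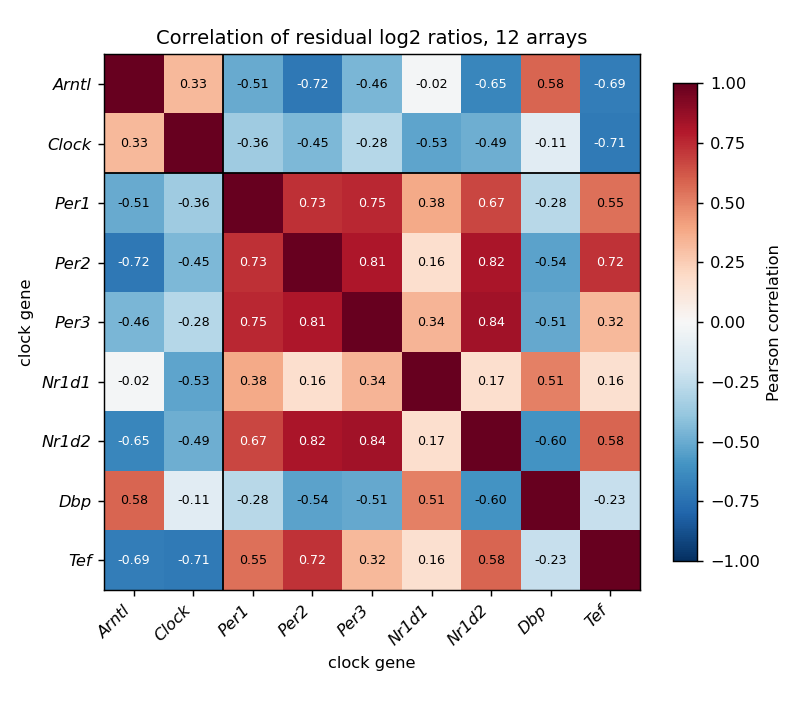
Pearson correlation of the residual log2 ratios (diet mean and dye effect removed) between each pair of clock genes over 12 arrays, from -1 (blue) to 1 (red); black lines part the activators from the genes of the opposite phase. Apart from Dbp, the blocks within a phase are positive and those between the phases negative.

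By the same residuals, the genes most like Arntl among 5090 genes compared over 12 arrays were Naca (0.96), Mcfd2 (0.96), Amy1 (0.96), Oas1c (0.95) and Dcaf11 (0.94). The most opposite ones were Mcm4 (-0.84), Set (-0.83), Mtdh (-0.82), Tmem120b (-0.82) and Denr (-0.81). None of them is 1 of the clock genes followed here.

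In the separate channels, clock gene signals varied between arrays for the wild-type RNA as well as for the knockout RNA. Differences between livers and between arrays cannot be told apart in this spread. Before normalization, array CA 2 had the highest median red intensity of all arrays (158.2). Array CA 4 had the highest median green intensity (1296) and the lowest median red intensity (59.2). On the log2 intensity scale after normalization between arrays, Per2 had 11.6, 9.81 and 9.65 in the knockout channel of arrays CA 2, CA 3 and CA 6, against 12.6, 11.2 and 9.92 in the wild-type channel of the same arrays. Nr1d1 spanned 8.18 to 11.1 in CA knockout channels, against 8.57 to 11.6 in their wild-type channels, and array CA 2 was the highest in both. Per1 stood at 11.9 in both RNAs of CA 2, where the other CA knockout channels lay between 8.82 and 9.47. The UDCA arrays spread less for Nr1d1, from 8.83 to 9.42 in the knockout channel and from 9.06 to 9.80 in the wild-type channel.

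The SD of the wild-type channel over 12 arrays lay at percentile 98 of all genes for Dbp (saturated), 96.6 for Per2, 96.3 for Per3, 95.3 for Nr1d1 and 94.3 for Per1. It lay at 79.5 for Tef, 77.9 for Arntl and 63.1 for Nr1d2. For Clock it lay at percentile 1.87, among the steadiest genes. Within CA and within UDCA wild-type channels the SD was 0.95 and 0.42 for Per2, 1.08 and 0.39 for Per3, 1.14 and 0.32 for Nr1d1 and 0.89 and 0.55 for Per1. For Dbp it was 0.94 and 1.10, the other way round. Over the 12 arrays the Pearson correlation of the knockout with the wild-type channel was 0.91 for Nr1d1, 0.72 for Per1, 0.71 for Per3, 0.68 for Nr1d2 and 0.64 for both Tef and Per2, beside a median of 0.56 over all genes. It was 0.16 for Arntl, -0.25 for Clock and -0.56 for the saturated Dbp. Both channels share the array, its hybridization and its scan. The hour at which the livers were taken is not given, and its part in these levels was not tested.

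**Figure D4:**
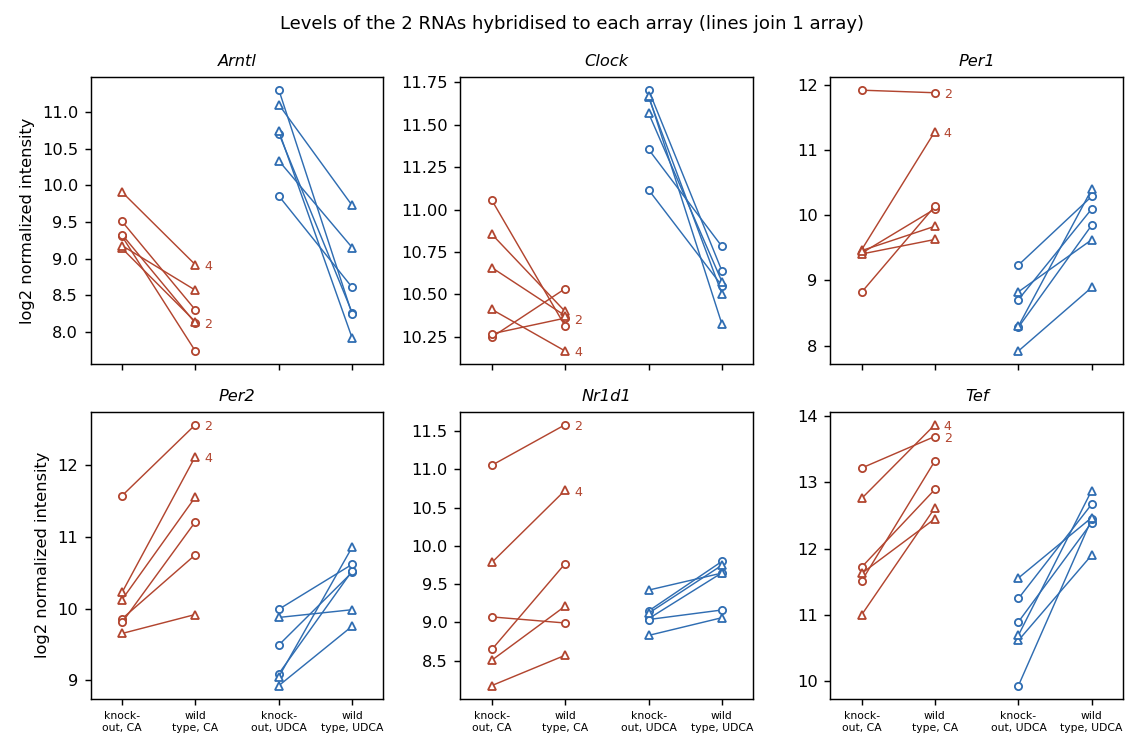
Log2 intensity of the knockout RNA and the wild-type RNA (horizontal axis, by diet) after normalization between arrays, with a line joining both channels of 1 array, circles for knockout in Cy5 and triangles for knockout in Cy3; CA arrays 2 and 4 are numbered. For Per1, Per2, Nr1d1 and Tef the wild-type RNAs of CA arrays 2 and 4 are the highest of their group, while the knockout RNA lies below the wild-type RNA on nearly every array.

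Among further regulators of the clock, Ciart and Hlf were lower in both diets. Of 22 such genes 19 were tested, and with CA 5 were higher and 6 lower, with UDCA 0 higher and 2 lower. With CA this is near the 60.3% called among all genes, and with UDCA it is below their 26%. The list medians were -0.20 with CA and 0.01 with UDCA, beside 0.10 and 0.04 for all genes. Ciart, the repressor whose promoter with 3 E-boxes is shown above, was lower on all 12 arrays, at -1.71 ± 0.15 with CA (adjusted p = 1.30e-07) and -2.34 ± 0.15 with UDCA (adjusted p = 5.87e-08). Hlf, a PAR bZIP factor like Dbp and Tef, was lower too, at -1.63 ± 0.12 with CA (adjusted p = 2.40e-08) and -0.92 ± 0.12 with UDCA (adjusted p = 3.95e-05). Csnk1e, a kinase that marks PER proteins for degradation, was higher with CA (1.74 ± 0.19, adjusted p = 1.90e-06).

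The partners of the Period proteins did not all move with them. Cry1 was lower with CA (-0.45 ± 0.10, adjusted p = 0.00132) and differed between the diets by -0.45 ± 0.14 (adjusted p = 0.0298), with a UDCA value of 0.00 ± 0.10 (adjusted p = 0.997). The 1 other Cry1 probe tested gave neither the call with CA nor that for the difference. Cry2 read -0.55 ± 0.20 with CA (adjusted p = 0.0303) and -0.56 ± 0.20 with UDCA (adjusted p = 0.0579). In the difference between the diets 8 of the 19 passed, 4 higher and 4 lower with CA. They included Csnk1e (1.26 ± 0.27), Timeless (0.81 ± 0.16) and Nfil3, which competes with DBP for D-boxes (-0.99 ± 0.20), with limma adjusted p-values from 0.00209 to 0.00359.

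Among liver genes with a strong daily rhythm, more passed as lower than as higher. Of 17 tested (of 18), 1 was higher and 8 lower with CA and 2 were higher and 9 lower with UDCA, beside 22.4% of all genes lower with CA and 8.77% with UDCA. The list medians were -0.46 with CA and -0.57 with UDCA, against 0.10 and 0.04 over all genes. Elovl3, a fatty acid elongase, stood at -2.75 ± 0.33 with CA (adjusted p = 4.39e-06) and -1.69 ± 0.33 with UDCA (adjusted p = 0.00147). Rgs16, a regulator of G protein signals, stood at -2.01 ± 0.15 (adjusted p = 3.05e-08) and -1.70 ± 0.15 (adjusted p = 1.00e-06). Usp2, a deubiquitinase driven by the clock, was at -1.61 ± 0.23 with CA (adjusted p = 2.55e-05) and -1.54 ± 0.23 with UDCA (adjusted p = 0.000168). Noct, a rhythmic phosphatase also known as nocturnin, was at -1.44 ± 0.16 with CA (adjusted p = 2.22e-06) and -0.85 ± 0.16 with UDCA (adjusted p = 0.00119). Between the diets 2 passed, Lonrf3 at -0.68 ± 0.23 and Cys1 at 0.60 ± 0.20.

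**Figure D5:**
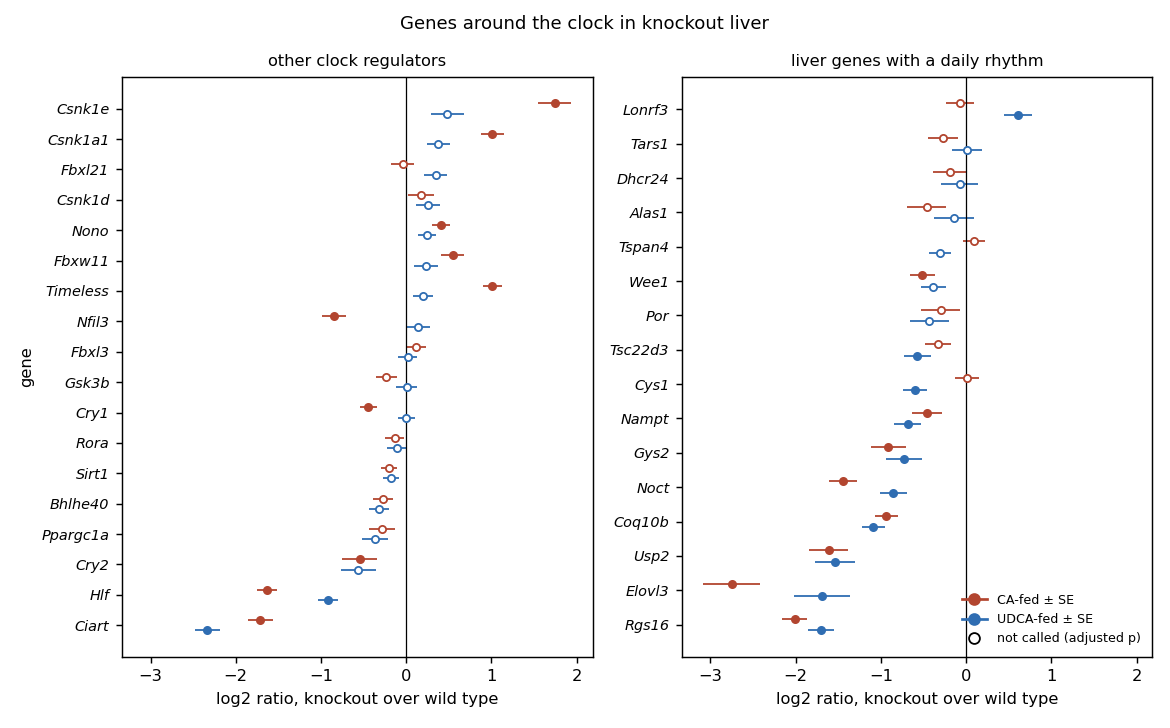
Log2 ratio of knockout over wild type (horizontal axis, mean of the limma fit ± standard error over 6 arrays) for further clock regulators and liver genes with a daily rhythm, CA-fed above UDCA-fed in each row, filled where called at an adjusted p under 0.05. Ciart, Hlf, Rgs16, Elovl3 and Usp2 lie left of 0 in both diets.

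Signals that reset the liver clock in mice were looked at through genes that answer to them. Of 12 genes of the glucocorticoid and feeding response tested (of 14), 4 were higher and 4 lower with CA, and 3 higher and 2 lower with UDCA, near the 60.3% of all genes called with CA and above the 26% with UDCA. Among genes raised by fasting, Pdk4 and Igfbp1 were higher with CA (2.06 ± 0.16 and 1.78 ± 0.27) and with UDCA (2.12 ± 0.16 and 1.41 ± 0.27). Angptl4 was lower with CA (-1.75 ± 0.20, adjusted p = 2.59e-06) and read -0.40 ± 0.20 with UDCA (adjusted p = 0.174). Angptl4 and G6pc1 were saturated on 6 arrays each. Pck1, saturated on all 12 arrays, and G6pc1 passed in neither diet (adjusted p from 0.178 to 0.602). Among glucocorticoid targets, Sgk1 was higher with CA (1.05 ± 0.23, adjusted p = 0.00171) and with UDCA (0.94 ± 0.23, adjusted p = 0.0100). Fkbp5 was lower with CA (-0.67 ± 0.14, adjusted p = 0.00105) and with UDCA (-0.47 ± 0.14, adjusted p = 0.0280), and Tat, saturated on all 12 arrays, passed in neither. Of 2 other Fkbp5 probes, 1 gave the same call with CA and 0 with UDCA. These members thus did not move one way.

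Of 8 heat and cold response genes tested (of 9), 3 were higher and 2 lower with CA and 2 higher and 1 lower with UDCA, again near the share of all genes with CA. Of the heat shock genes, Hspa1a was lower in both (-2.23 ± 0.23 with CA and -1.57 ± 0.23 with UDCA), whereas Hspb1 was higher in both (1.58 ± 0.13 with CA and 0.63 ± 0.13 with UDCA). Of the cold-induced genes, Rbm3 was higher in both by its brightest probe (1.55 ± 0.14 with CA and 0.68 ± 0.18 with UDCA), and Cirbp was higher with CA (1.02 ± 0.15, adjusted p = 3.38e-05) and read -0.05 ± 0.15 with UDCA (adjusted p = 0.861). The 1 other Rbm3 probe tested gave the same call in neither diet. With UDCA the brightest Rbm3 probe was higher on 3 arrays and lower on 1, and had no value on the rest. The part of food, stress hormone or temperature in the clock values was not tested.

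RNA of most bile duct, stellate and fibroblast markers was higher in the knockout livers of both diets. Of all genes, 37.8% were called higher and 22.4% lower with CA, and 17.2% and 8.77% with UDCA. With CA the counts of lymphocyte, endothelial and hepatocyte markers given below do not stand clear of the 60.3% of all genes called in either direction. All 6 bile duct markers were higher with CA and 5 of 6 with UDCA, their mean ratio per array running from 2.15 to 3.74 with CA and from 0.66 to 2.29 with UDCA. Of the stellate and fibroblast markers 6 of 6 were higher with CA and 5 of 6 with UDCA, with means per array of 1.41 to 3.10 and 1.44 to 2.56. Macrophage markers were higher for 4 and lower for 2 of 6 with CA and higher for 4 with UDCA, with means of -0.45 to 1.20 and 0.55 to 1.33. Of 4 lymphocyte markers 2 were higher and 1 lower with CA and none was called with UDCA, and of 5 endothelial ones 1 was higher and 1 lower with CA and 1 lower with UDCA. Of 7 hepatocyte markers, 3 were lower with CA (Ttr, Hnf4a and Tdo2) and 2 with UDCA (Ttr and Hnf4a). Of 2 other Hnf4a probes tested, 2 gave the same call with CA and 0 with UDCA. Ttr was saturated on 5 arrays, Tdo2 on 7 and Hnf4a on 1, beside the saturation given above. The mean ratio of hepatocyte markers per array split by dye, from 0.90 to 1.14 on CA arrays 1 to 3 and -1.84 to -1.59 on CA arrays 4 to 6. On UDCA arrays 1 to 3 it ran from 0.41 to 1.25, and on UDCA arrays 4 to 6 from -2.22 to -0.52. The part of cell makeup, which was not measured, in the clock gene values was not tested.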

How the data were processed

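Mouse liver RNA was measured on 12 2-colour Agilent arrays, 6 per diet group. Per the file headers, Feature Extraction 9.5.3 gave, without normalization, the mean spot intensity and median local background intensity, and a processed log10 ratio of red over green, per the file headers after its own background subtraction and dye normalization. The deposited series table holds 1 log2 ratio per spot, with a normalization not given in the sources used here; it was set against the scanner values by row order (absolute correlations 0.749 to 0.975), and its CA columns ran the other way and were turned.

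Intensities were corrected with normexp (offset 50) and loess within arrays using limma (version 3.58.1, run under R 4.3.3; tables were read with data.table, version 1.17.8). Of 45018 spots 1639 were controls and left out, and values with a scanner outlier flag (0.891% of those of tested probes) were dropped. A probe needed a signal well above background on 5 or more of the 6 arrays of a group, in one channel or the other, which left 21688 of 41174 probes to test. Ratios were turned to knockout over wild type by the labels' dyes. One limma fit held both diets and a dye effect (9 residual and 5.95 prior degrees of freedom), and calls were made at an adjusted p under 0.05. A gene is its brightest tested probe. Separate channels were scaled between arrays with Aquantile after loess. The number of arrays limits the precision.

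Members, lists, named genes and tests were chosen with earlier results of these data known. Named were all members, from each list up to 4 called genes with the largest change per comparison, and the 5 genes most and least like Arntl (those for Dbp are not given, its spots being saturated); Cry1, Cry2, Fkbp5, Pck1, G6pc1 and Tat were named after their values were seen, and some genes of the lists are counted but not reported by name here or drawn. Which arrays are the dye swap is not in the labels. The highest residual correlation between arrays of opposite dye was 0.109 with CA and 0.0929 with UDCA, under a limit of 0.3, so all arrays were kept; 6 arrays then stand for 5 livers, which makes the p-values too small by an amount that was not tested. Alternatives covered background, normalization, filters, dye, slide, replicate number, probes and each array left out.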

Additional observations from a re-analysis of the deposited data

Results flagged for a closer look

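In the UDCA group, Per3 on array 6 read -1.45, while the other 5 arrays lay between -0.69 and -0.25. It stood apart by the gap between the lowest array and its neighbour relative to the group's range (Dixon's criterion). Among the 20 sets of 6 arrays looked at (9 genes and the gap, in 2 diets) only this 1 was marked, and chance alone marks about 1 set in 20. The same array had the lowest Per1 and Per2 ratios of its group (-2.09 and -1.81).

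The response to knockout and bile acid differed between the diets in the limma fit for 3 clock genes, given as CA minus UDCA. Arntl differed by -0.92 and Clock by -0.72, and neither call held with slide as a fixed block (adjusted p = 0.0571 and 0.248). Dbp differed by 0.84, being lower with UDCA, on spots saturated in 1 channel of every array. Within slides 3 and 4 its sign was the opposite one (-1.12 and -0.40), but the dyes were not balanced there. On slide 3 the CA array had the knockout in Cy3 and the UDCA arrays had it in Cy5. With a dye effect of 1.13 for Dbp in the fit, these within-slide signs cannot be set against the fit.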

How the results depend on the processing

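The gap between the phases kept its direction under every alternative for which it was computed, from -1.73 to -1.28 with CA and from -3.22 to -2.22 with UDCA; leaving out 1 array gave -1.54 to -1.32 and -2.67 to -2.27. It was not computed for the strict filter on dim probes. Members called depended most on the normalization: with median centring 2 passed for CA, 2 for UDCA and 0 for the difference (by limma, at an adjusted p under 0.05), and Nr1d1 with UDCA turned to 0.0057 (adjusted p = 0.994). The standard errors were larger there (for Tef 0.51, against 0.20 with loess). For the difference between the diets, 1 member passed without a dye effect and 0 with slide as a fixed block. Leaving out 1 array gave 6 to 8 members with CA, 7 to 9 for UDCA and 1 to 3 for the difference. Across all alternatives the single genes kept their direction in 231 of 231 values with CA, 230 of 231 with UDCA and 217 of 222 in the difference. Calls gained were Per3 with UDCA (among others without CA 4 or CA 6, and with slide as a fixed block, adjusted p = 0.00104), Per1 in the difference without CA 4 (adjusted p = 0.0378) and with the scanner's processed signals (0.0219), and Dbp with CA without CA 1 or UDCA 6 and with the deposited series values (0.0035). Nr1d1 with UDCA also missed the threshold without a dye effect, background subtraction or filter, and with the replicate block (adjusted p from 0.0511 to 0.0704). With spots saturated in either channel left out (chosen after seeing the data), 7 and 8 of 8 members passed. Replicate numbers did not pair the arrays: residuals of same-numbered arrays correlated between -0.57 and 0.13, and 0 of 6 correlated best with its own number; with a replicate block 7, 7 and 2 members passed. Over all probes the difference between diets gave 689 higher and 126 lower with median centring and 1339 and 630 with slide as a fixed block, against 3561 and 2282. The cause was not tested. Saturation limits Dbp, and closeness to background limits Npas2, Per3 and the dim probes.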
